A study of Mus musculus with 3 samples.

Results

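Type I interferon-stimulated genes are described here in regulatory T cells (Tregs) of mouse epidermis, dermis and lymph node. The 39 genes were chosen by symbol, and all 39 were present among the 27998 genes of the matrices. Single-cell RNA was collected with 10x Genomics 3′ kits, in which each captured transcript is counted once as a UMI (unique molecular identifier). The epidermal Tregs came from back skin of adult mice, the dermal Tregs from adult mouse dermis and the lymph node Tregs from adult lymph node, with 1 library per tissue. All 3 groups carried the same Foxp3-EGFP reporter allele (strain FOXP3-EGFP, C.Cg-Foxp3tm2Tch/J), which marks cells that express the Treg transcription factor Foxp3 with green fluorescence, and the sort kept cells positive for GFP, CD4, CD3 and CD45. Thermolysin split the skin layers, collagenase digested the dermis, and lymph node was mashed. No treatment is named in the labels, and the sources used here do not give the number, sex and exact age of the animals. Epidermis and dermis were run with the v3 kit and lymph node with the v2 kit, so kit and tissue cannot be told apart in any difference from lymph node.

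Type I interferons bind a receptor made of Ifnar1 and Ifnar2 on almost every cell, and the kinases Jak1 and Tyk2 then activate STAT transcription factors. Stat2 and Irf9 act in the factor ISGF3, which binds interferon-stimulated response elements in promoters. The induced genes encode sensors of viral nucleic acid, proteins that block viral replication, and regulators that restrain the response, such as Usp18. Interferon gamma, a cytokine of T and NK cells, acts at gamma-activated sites and induces an overlapping set of genes.

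The promoters of 5 members among those that varied most with the rest of the list from cell to cell in lymph node are shown first, because they carry the DNA element that names the pathway. The core of that element, read as GAAA, any 2 bases and GAAA on either strand, was searched from 250 bases before to 50 bases after the annotated start of each gene in RefSeq (GRCm38.p6). It was found in 15 of the 31 members with an entry (48.4%) and in 1079 of all 27025 genes (3.99%). Dhx58, Zbp1, Mx1, Usp18, Parp9, Parp14, Ifi27l2a and Rtp4 had no entry. The palindrome of gamma-activated sites, TTC, any 3 bases and GAA, was found in 6 of the 31 members (19.4%) and in 2582 of all genes (9.55%). The sequences run 5′ to 3′ on the strand of the gene, from 170 to 21 bases before its annotated start, with matches to the response element core in capitals (read as TTTC, 2 bases and TTTC where the match lies on the other strand).
Isg15, chr4:156200839-156200988, minus strand: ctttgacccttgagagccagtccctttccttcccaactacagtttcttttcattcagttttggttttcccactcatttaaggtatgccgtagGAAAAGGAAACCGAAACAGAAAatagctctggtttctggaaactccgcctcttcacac
Ifit1, chr19:34640719-34640868, plus strand: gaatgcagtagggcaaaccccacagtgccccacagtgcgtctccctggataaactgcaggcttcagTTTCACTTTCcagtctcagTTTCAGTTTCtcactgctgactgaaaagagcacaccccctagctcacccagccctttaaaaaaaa
Ifit3, chr19:34583359-34583508, plus strand: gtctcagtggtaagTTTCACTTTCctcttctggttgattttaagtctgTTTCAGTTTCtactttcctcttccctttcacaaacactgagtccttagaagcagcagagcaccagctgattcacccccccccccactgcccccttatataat
Bst2, chr8:71537493-71537642, minus strand: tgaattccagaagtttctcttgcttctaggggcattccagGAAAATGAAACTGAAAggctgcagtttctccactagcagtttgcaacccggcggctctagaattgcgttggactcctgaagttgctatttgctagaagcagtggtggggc
Ifi203, chr1:173942513-173942662, minus strand: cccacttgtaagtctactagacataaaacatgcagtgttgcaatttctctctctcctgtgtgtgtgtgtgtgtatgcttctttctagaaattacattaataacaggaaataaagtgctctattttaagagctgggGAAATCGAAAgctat
Isg15 held 3 matches that overlap in 1 run, Ifit1, Ifit3 and Bst2 held 2 each, with those of Bst2 overlapping, and Ifi203 held 1. Another annotated start of Ifi203 held 0. The 5 were chosen for holding a match, and Irf7 and Xaf1, at ranks 6 and 8 by the same measure in lymph node, held 0 (Bst2 and Ifi203 are at ranks 7 and 10). A match is a description of the letters and was not tested as a binding site.

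A cell was kept with at least 500 UMIs and at most 10% mitochondrial UMIs, which left 297 of 360 barcodes in epidermis, 875 of 1077 in dermis, against 9400 of 9419 in lymph node. The kept cells held 2205131, 4630059 and 32906839 UMIs, with medians of 6671, 4726 and 3022 UMIs per cell in epidermis, dermis and lymph node. At least 1 UMI of the T cell genes was found in 91.9%, 97.0% and 99.8% of cells. Foxp3 stood at 91.6, 146 and 21.8 CPM (UMIs of a gene out of each 1000000 UMIs in the kept cells of a library). Keratinocyte markers summed to 70.3 CPM in epidermis, 179 CPM in dermis and 27.7 CPM in lymph node, with Krt14 at 4.08, 38.7 and 0 CPM. Macrophage and monocyte markers summed to 27.2, 5.62 and 15.0 CPM, which is also lowest in dermis. Lyz2 made up 14.1, 3.02 and 10.1 CPM of these, C1qa had 5, 0 and 22 UMIs, and Adgre1 and Fcgr1 had 0 in all 3. Markers of CD8 T and NK cells summed to 198, 101 and 73.8 CPM and were highest in epidermis, with Cd8a at 15.9, 0.648 and 0.577 CPM, Nkg7 at 151, 81.0 and 53.3 CPM, and Ncr1 at 0 in all 3. The part of these markers in the results was not tested, apart from the cells with few UMIs of other cell types given with the sums. Plasmacytoid dendritic cells are a major source of type I interferon. Their markers summed to 253, 133 and 202 CPM, most of it from the member Bst2, while the defining marker Siglech had 0, 2 and 0 UMIs.

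Epidermis and dermis shared 41 kept cell barcodes, and neither shared any with lymph node. In 39 of the 43 shared pairs deposited, 1 barcode had at least 5-fold more UMIs than the other, with 30 of these larger in epidermis and 9 in dermis. A median of 98.9% of the genes of the smaller barcode were also found in the larger. The 33 dermal barcodes that were the smaller of a pair held 0.949% of dermal UMIs, and the 8 epidermal ones held 0.424% of epidermal UMIs. The libraries also differed in transcripts that mark sex. Cells with a UMI of a Y-linked gene (Ddx3y, Eif2s3y, Kdm5d or Uty) and none of Xist made up 34.0% of cells in epidermis, 6.29% in dermis and 0 of 9400 in lymph node, which allows a share of up to 0.0319% there. Cells with Xist but without Y-linked UMIs made up 37.4%, 82.6% and 75.4%. Values without the shared barcodes and within each kind of cell stand beside the results.

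The summed level of the 39 genes was 3428 CPM in epidermis (exact Poisson 95% interval 3351 to 3506), 2054 CPM in dermis (2013 to 2096) and 3950 CPM in lymph node (3929 to 3972). The epidermal sum was 1.67-fold that of dermis (1.62 to 1.72). The dermal sum was 1.92-fold lower than that of lymph node and the epidermal sum 1.15-fold lower. All intervals cover counting error only, and with 1 library per tissue there is no replicate check and no test between tissues. Of the 39 members, 35 were lowest in dermis and 4 in lymph node, while 23 were highest in lymph node, 15 in epidermis and 1 in dermis. These counts include 9 members with a mean under 10 CPM. The share of all genes in each such order was not computed. Of all 7312 genes with a mean of at least 10 CPM, 56.6% were lower in dermis than in epidermis. The share lower in dermis than in lymph node was 44.5%. Ifi27l2a, which encodes a small interferon-induced membrane protein (chr12:103442167-103443680, mm10), held 50.9% of the epidermal, 47.3% of the dermal and 53.0% of the lymph node UMIs of the list. Without it the sums were 1682, 1082 and 1856 CPM in epidermis, dermis and lymph node, in the same order.

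**Figure D1:**
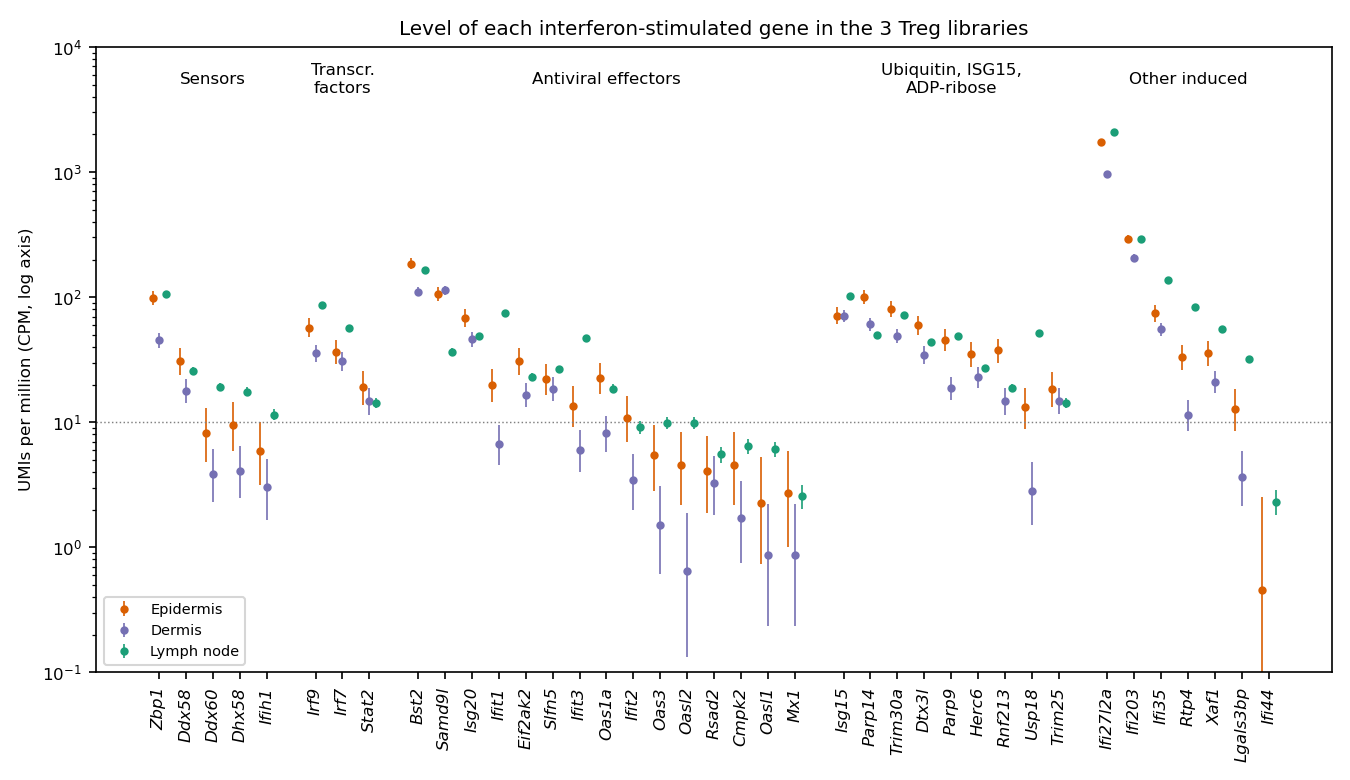
Level of each member in epidermis (orange), dermis (purple) and lymph node (green) on a log axis of CPM, grouped by role, with exact Poisson 95% intervals as bars and a dotted line at 10 CPM. Dermis is the lowest of the 3 for 35 of 39 genes, a count for which no share of all genes was computed. Ifi44, with 0 dermal UMIs, has no dermal point.

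Sensors of viral nucleic acid were lowest in dermis, with a summed level of 153 CPM in epidermis (137 to 171), 74.1 CPM in dermis (66.4 to 82.4) and 180 CPM in lymph node (176 to 185). Zbp1, which senses nucleic acid in the Z form (chr2:173206612-173218923), stood at 98.9 CPM in epidermis, 45.1 CPM in dermis and 106 CPM in lymph node. Its epidermal level was 2.19-fold that of dermis (1.80 to 2.66), and the interval of its ratio to lymph node included 1 (0.929, 0.807 to 1.07). Ddx58, which encodes the RNA sensor RIG-I, stood at 30.8, 17.9 and 25.9 CPM in epidermis, dermis and lymph node. Ddx58 thus differed by under 2-fold between any 2 libraries. Dhx58, which encodes the related helicase LGP2, stood at 9.52, 4.10 and 17.5 CPM, and the helicase gene Ddx60 at 8.16, 3.89 and 19.1 CPM. Both were highest in lymph node, and both rested on at most 21 UMIs in either skin library. Ifih1, the RNA sensor MDA5, had 13, 14 and 378 UMIs and a mean level under 10 CPM.

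The 3 transcription factors of the response were each within 2-fold between the skin layers. Irf9, the DNA-binding subunit of ISGF3 (chr14:55603571-55610030), stood at 57.1 CPM in epidermis, 35.6 CPM in dermis and 86.6 CPM in lymph node. It was 2.43-fold lower in dermis than in lymph node (2.08 to 2.86). Irf7, which drives further interferon production, stood at 36.7, 30.7 and 56.6 CPM, so epidermis and dermis did not differ beyond their interval (ratio 1.198, 0.900 to 1.58). Stat2, a partner of Irf9 in ISGF3, stood at 19.0, 14.7 and 14.4 CPM. Stat2 is 1 of 3 members, with Trim25 and Parp14, whose levels ran from epidermis down through dermis to lymph node. For Stat2 and Trim25 all 3 intervals of the ratios included 1.

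Among the 8 antiviral effectors with a mean of at least 10 CPM, Ifit1 and Ifit3 spanned the widest range. Ifit1, which binds foreign RNA at its cap (chr19:34640871-34650009), had 44, 31 and 2442 UMIs, or 20.0 CPM in epidermis, 6.70 CPM in dermis and 74.2 CPM in lymph node. It was 2.98-fold higher in epidermis than in dermis (1.84 to 4.88), 3.72-fold lower in epidermis than in lymph node (2.76 to 5.13) and 11.1-fold lower in dermis than in lymph node (7.79 to 16.3). Within cells split by sex-linked transcripts the epidermal excess of Ifit1 over dermis was smaller, at 1.31-fold (0.314 to 4.17) in cells with Xist but without Y-linked UMIs and 1.35-fold (0.573 to 3.67) in cells with the reverse. Ifit3 (chr19:34583531-34588731) stood at 13.6, 6.05 and 46.8 CPM in the same order. Both genes therefore ran from lymph node through epidermis down to dermis, with no overlap of intervals between lymph node and either skin layer. Their near copies Ifit1bl1 (14.1, 1.94 and 52.6 CPM) and Ifit3b (5.44, 2.38 and 13.4 CPM) can share reads with them, so the split within each pair is uncertain. Ifit2 did not follow this order, at 10.9, 3.46 and 9.12 CPM.

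Samd9l, an antiviral gene that also restrains cell growth (chr6:3372257-3399572), was the exception of the list. It stood at 106 CPM in epidermis (233 UMIs), 114 CPM in dermis (526 UMIs) and 36.8 CPM in lymph node (1210 UMIs). Both skin layers were higher than lymph node, epidermis by 2.87-fold (2.49 to 3.31) and dermis by 3.09-fold (2.78 to 3.42). Over all cells the skin layers did not differ from each other beyond the interval (ratio 0.930, 0.794 to 1.09). The ratio of epidermis to dermis was 0.803 (0.626 to 1.02) in cells with Xist but without Y-linked UMIs and 1.86 (1.13 to 3.22) in cells with the reverse. Bst2, which encodes tetherin, a protein that holds budding virus at the membrane, stood at 185, 111 and 164 CPM in epidermis, dermis and lymph node. Oas1a, which makes the signal that activates RNase L, stood at 22.7, 8.21 and 18.5 CPM. Oas1a was 2.76-fold higher in epidermis than in dermis (1.78 to 4.33). Its epidermal and lymph node levels did not differ beyond the interval. The exonuclease gene Isg20 (68.5, 46.0 and 49.4 CPM), Eif2ak2, which encodes the kinase PKR (30.8, 16.6 and 23.1 CPM), and Slfn5 (22.2, 18.6 and 26.5 CPM) stayed within 2-fold in every pair of libraries. Rsad2, Mx1, Oas3, Oasl1, Oasl2 and Cmpk2 had at most 12 epidermal and 15 dermal UMIs each, against 84 to 327 in lymph node.

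In the ubiquitin, ISG15 and ADP-ribose system, Usp18 differed most. Usp18 removes Isg15 from proteins and blocks the type I interferon receptor (chr6:121245906-121270917). It had 29 UMIs in 22 epidermal cells, 13 UMIs in 11 dermal cells and 1702 UMIs in lymph node, or 13.2, 2.81 and 51.7 CPM. It was 4.68-fold higher in epidermis than in dermis (2.36 to 9.81), 3.93-fold lower in epidermis than in lymph node (2.73 to 5.89) and 18.4-fold lower in dermis than in lymph node (10.7 to 34.7). The ratio of epidermis to dermis was 4.58 (1.22 to 17.1) in cells with Xist but without Y-linked UMIs and 1.52 (0.417 to 8.29) in cells with the reverse. Isg15, the ubiquitin-like protein attached to targets in this response (chr4:156199424-156200818), was at 71.2 CPM in epidermis, 71.1 CPM in dermis and 102 CPM in lymph node. Isg15 therefore showed no difference between the skin layers (ratio 1.00, 0.823 to 1.22), unlike most of the list. Parp9 and Dtx3l, whose proteins act as a pair on damaged DNA and in interferon signalling, stood at 45.8 and 59.9 CPM in epidermis, 18.8 and 34.6 CPM in dermis, and 48.7 and 43.8 CPM in lymph node. Parp14, an ADP-ribosyltransferase, stood at 101, 60.5 and 49.9 CPM. It was 2.02-fold higher in epidermis than in lymph node (1.74 to 2.32), a ratio that stayed past 2-fold in 5 of 13 other settings. Rnf213, a large ubiquitin ligase, stood at 37.6, 14.7 and 18.8 CPM, while Herc6, the main Isg15 ligase of the mouse, Trim25 and Trim30a stayed within 2-fold.

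Of the other induced genes, Ifi27l2a stood at 1745 CPM in epidermis (1691 to 1802), 972 CPM in dermis (944 to 1001) and 2094 CPM in lymph node (2078 to 2110). It was 1.80-fold higher in epidermis than in dermis (1.72 to 1.87), while it was 2.15-fold lower in dermis than in lymph node (2.09 to 2.22). Rtp4, which encodes a receptor chaperone (chr16:23520291-23614222), stood at 33.1, 11.4 and 83.5 CPM in epidermis, dermis and lymph node. Lgals3bp, a secreted galectin-binding protein, stood at 12.7, 3.67 and 31.9 CPM. Rtp4 and Lgals3bp shared the order of Ifit1 and Usp18, with lymph node above epidermis and epidermis above dermis by more than 2-fold at each step. Ifi35 (74.8, 55.3 and 136 CPM) and the apoptosis-linked gene Xaf1 (35.8, 21.0 and 55.3 CPM) were at least 2-fold lower in dermis than in lymph node and not in epidermis. Ifi203, a member of the DNA-binding PYHIN family with near copies next to it in the genome, stood at 293, 207 and 292 CPM, with a ratio of epidermis to lymph node of 1.00 (0.926 to 1.09). Ifi44 had 1 epidermal, 0 dermal and 76 lymph node UMIs, and 0 of 4630059 dermal UMIs gives an upper limit of 0.648 CPM (3 counts).

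Between epidermis and dermis, which shared a kit, 11 of the 30 members with a mean of at least 10 CPM over the 3 libraries were higher in epidermis by 2-fold or more, and 0 were lower by as much. Over all 7312 genes at that level, 4.38% were at least 2-fold higher and 3.21% lower. The 11 were Usp18, Lgals3bp, Ifit1, Rtp4, Oas1a, Rnf213, Parp9, Dhx58, Ifit3, Zbp1 and Ddx60. Of the 30, 29 lay above 1 and Samd9l lay below, against 56.6% of all genes above 1. The median log2 ratio was 0.78 for the members and 0.07 for all genes. Sensors had the highest median of the 5 roles (1.10, 4 members) and transcription factors the lowest (0.38, 3 members). It was 0.82 for antiviral effectors, 0.74 for the ubiquitin, ISG15 and ADP-ribose system and 0.81 for the other genes. In cells with Xist but without Y-linked UMIs, the sensor Zbp1 stayed above 1, while Ddx58, Dhx58 and Ddx60 lay below with intervals that included 1. Over all cells, the interval lay above 1 for 24 of the 30 members, against 24.5% of all genes. In other settings of cells and scaling, Oas1a stayed at least 2-fold higher in 14 of 14 and Usp18, Lgals3bp, Rtp4 and Rnf213 in 13 of 14, while Zbp1 did so in 8 of 14 and Ddx60 in 8 of 13.

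Between epidermis and lymph node, 2 of 30 members were at least 2-fold higher in epidermis (Samd9l and Parp14), against 19.7% of all genes. Another 6 were at least 2-fold lower (Usp18, Ifit1, Ifit3, Rtp4, Lgals3bp and Ddx60), against 2.83% of all genes. The ratio lay above 1 for 14 members, against 61.9% of all genes, and below 1 for 16, against 38.1%. The median log2 ratio was -0.10 for the members and 0.20 for all genes. Between dermis and lymph node, 1 member was at least 2-fold higher in dermis (Samd9l), against 22.8% of all genes, and 14 were lower, against 8.97%. Those 14 were Usp18, Ifit1, Lgals3bp, Ifit3, Rtp4, Ddx60, Dhx58, Xaf1, Parp9, Ifi35, Irf9, Zbp1, Oas1a and Ifi27l2a. The ratio lay above 1 for 4 members, against 55.5% of all genes, and below 1 for 26, against 44.5%. The median was -0.72 for the members and 0.13 for all genes. Both comparisons share the lymph node library, so their values are given side by side and not as support for each other. Of the called members, 6 of 8 stayed past 2-fold in every other setting of cells and scaling for epidermis over lymph node and 13 of 15 for dermis over lymph node, with Ifit1, Ifit3, Usp18 and Samd9l among them in both.

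**Figure D2:**
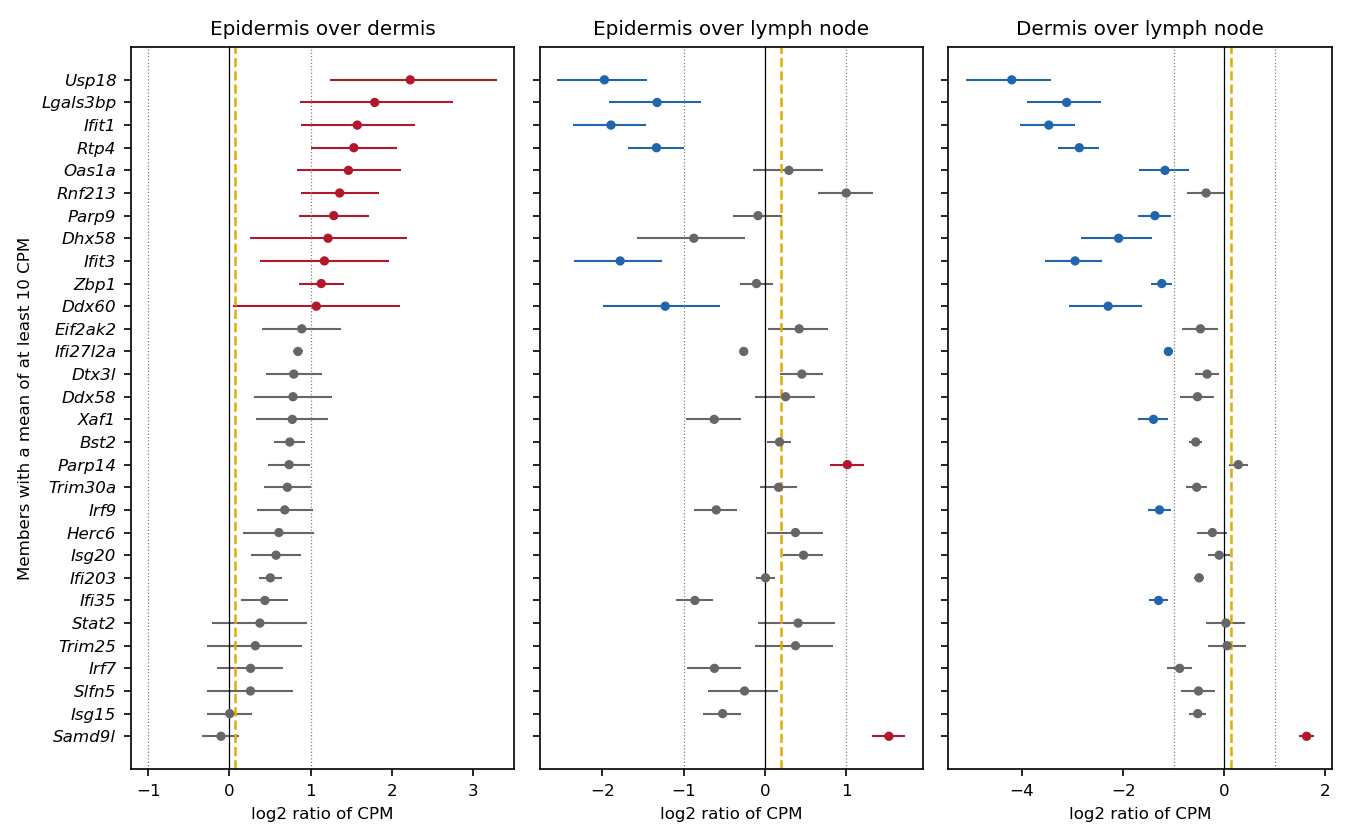
Log2 ratio of CPM for the 30 members with a mean of at least 10 CPM, with exact binomial 95% intervals, for epidermis over dermis, epidermis over lymph node and dermis over lymph node. Red marks at least 2-fold higher, blue at least 2-fold lower, dotted lines 2-fold and the dashed line the median of all 7312 genes; 11 members are red on the left, and Samd9l is the one member that is red in both comparisons with lymph node.

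The difference between the skin layers was smaller in cells with Xist but without Y-linked UMIs. In those cells the members summed to 2185 CPM in epidermis (111 cells), 1870 CPM in dermis (723 cells) and 3985 CPM in lymph node (7086 cells), and the ratio of epidermis to dermis was 1.17 (1.11 to 1.23). At least 2-fold higher in epidermis were 3 of 28 members (Usp18, Oas1a and Parp9), against 4.69% of all genes, and the median log2 ratio was 0.36. Isg15 was lower, at 27.4 CPM in epidermis (17.4 to 41.1) and 59.6 CPM in dermis. Of the 30 members with a mean of at least 10 CPM over all cells, 20 lay above 1 there and 10 below, against 29 and 1 in all cells. Over all cells 56.6% of all genes lay above 1, and that share was not computed for this kind of cell. Besides Isg15 and Samd9l, those below 1 were Ifit3, Dhx58, Irf7, Xaf1, Trim25, Ddx60, Ddx58 and Bst2, with log2 ratios of -0.61, -0.51, -0.45, -0.39, -0.25, -0.13, -0.08 and -0.06, and each of these 8 intervals included 1. Rtp4, Rnf213 and Lgals3bp stayed above 1 at 1.08-fold, 1.32-fold and 1.76-fold, with intervals that included 1. In cells with Y-linked UMIs but without Xist, the members summed to 4362 CPM in 101 epidermal cells and 2586 CPM in 55 dermal cells, a ratio of 1.69 (1.56 to 1.83). In those cells 11 of 29 members were at least 2-fold higher in epidermis, against 13.4% of all genes.

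Within epidermis alone, the summed member level was therefore higher in cells with Y-linked UMIs but without Xist than in cells with Xist but without Y-linked UMIs. Ifi27l2a stood at 2349 CPM in the first (2246 to 2455) and 932 CPM in the second (868 to 999). Bst2 stood at 253 and 98.9 CPM, Isg15 at 94.8 and 27.4 CPM, and Ifit1 at 32.4 and 4.77 CPM. Not all members differed in this way. Irf9 stood at 57.6 and 56.0 CPM, Parp9 at 48.0 and 47.7 CPM, Stat2 at 15.6 and 15.5 CPM, and Slfn5 at 21.6 and 23.8 CPM. At an equal depth of 1500 UMIs per cell, the median was 4 member UMIs in 97 cells of the first kind and 3 in 103 of the second, with highest values of 40 and 17. The sources used here do not say how many animals of each sex gave these cells, so sex and animal cannot be told apart. Lymph node cells with Xist but without Y-linked UMIs were above the same kind of cell in both skin layers.

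Leaving out shared barcodes moved the sums by less than the split by Xist and Y-linked UMIs. Without the smaller barcode of each pair, the members summed to 3436 CPM in epidermis and 2035 CPM in dermis. The same number of members, 11, were at least 2-fold higher, against 4.53% of all genes. Without any shared barcode the sums were 3232 and 2045 CPM and 9 of 29 members were at least 2-fold higher. In cells with at least 2 T cell UMIs and at most 3% of UMIs on markers of other cell types, the sums were 3451, 2062 and 3954 CPM in epidermis, dermis and lymph node. In cells with a Foxp3 UMI they were 3589, 2094 and 4048 CPM. The order of the 3 tissues was thus the same in each of these subsets.

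**Figure D3:**
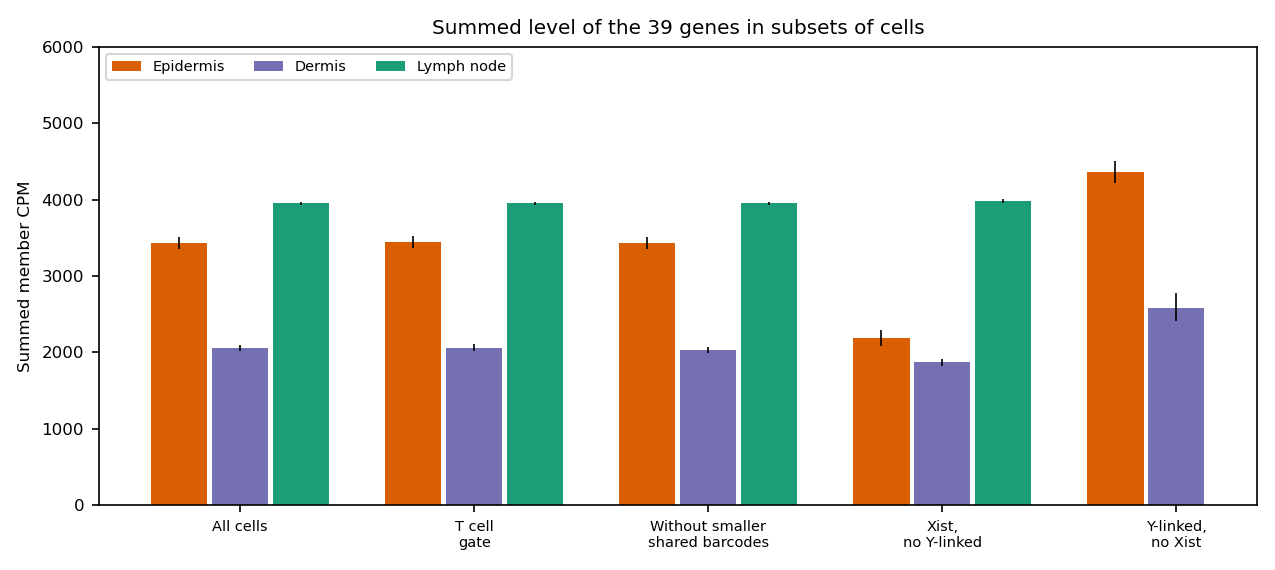
Summed CPM of the 39 members (linear axis from 0) in epidermis, dermis and lymph node for all cells and 4 subsets, with exact Poisson 95% intervals; lymph node has no cells with a Y-linked UMI. Epidermis stands at 2185 CPM in cells with Xist but without Y-linked UMIs and at 4362 CPM in cells with the reverse, and dermis is lowest in every subset.

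At equal depth, every library held a tail of cells with many member transcripts. With each cell thinned to 1500 UMIs, the median was 3 member UMIs in 262 epidermal cells, 2 in 828 dermal cells and 5 in 9308 lymph node cells, and the highest cell had 46, 45 and 67. Cells with at least 10 member UMIs made up 11.8% of epidermal cells (exact Clopper-Pearson 95% interval 8.18 to 16.4), 2.54% in dermis (1.58 to 3.85), against 1489 of 9308 in lymph node (15.3% to 16.8%). The 10% of cells richest in member UMIs held 38.6% of them in epidermis, 35.6% in dermis, against 30.9% in lymph node. The variance of member UMIs over cells was 7.39 times the mean in epidermis, 4.43 times in dermis and 5.06 times in lymph node. With all members both measures were highest in epidermis. Without Ifi27l2a the variance was 4.07, 2.17 and 4.21 times the mean in epidermis, dermis and lymph node, and the share of the richest 10% of cells was 37.1%, 33.5% and 35.9%. A lower mean can itself raise the share held by the richest cells, and its part in these shares was not tested.

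**Figure D4:**
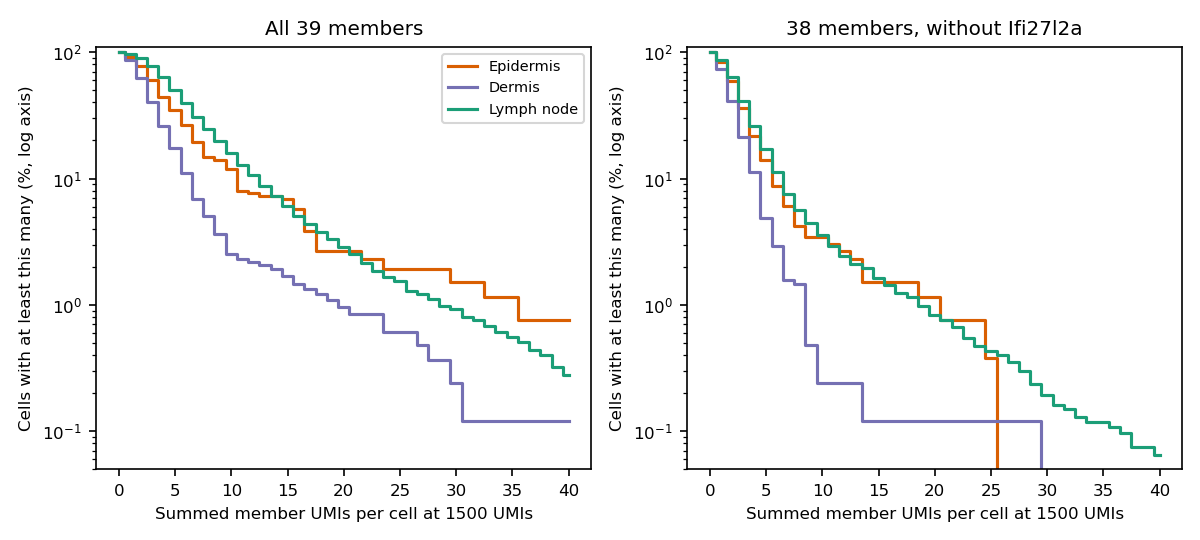
Share of cells (percent, log axis) with at least the number of member UMIs on the x axis, each cell thinned to 1500 UMIs, for all 39 members (left) and without Ifi27l2a (right). The dermal line lies lowest at 10 UMIs on the left, at 2.54% of cells, and epidermis stands at 11.8%.

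Single members were found in few cells at that depth, apart from the most abundant. Ifi27l2a had a UMI in 64.9% of cells in epidermis, 53.5% in dermis, against 85.2% in lymph node, and Ifi203 in 35.1%, 25.8% and 35.0%. Isg15 had one in 4.58% of cells in epidermis (2.39 to 7.86), 5.92% in dermis (4.41 to 7.75), against 10.5% in lymph node (9.90 to 11.2). Usp18 had one in 7 of 262 cells in epidermis, 1 of 828 in dermis, against 663 of 9308 in lymph node. Samd9l again ran the other way, with 14.1% of cells in epidermis, 14.4% in dermis, against 5.64% in lymph node. Free RNA in the droplets can set a floor to such shares. UMIs of the keratinocyte genes Krt5 and Krt14, which Tregs do not use, were found in 0.382% of the epidermal and 0.242% of the dermal cells. Over all kept dermal cells, Krt5 had 60 and Krt14 had 179 UMIs, so these UMIs lay in few barcodes. A count held by so few barcodes does not give the level of free RNA spread over the droplets, so that floor was not measured. Lymph node, a tissue with no keratinocytes to release them, had 0 UMIs of either gene. In dermis, Usp18 was found in 1 of 828 cells (0.121%), Lgals3bp in 2 (0.242%), Ifit3 in 4 (0.483%), and Ifit1 and Dhx58 in 5 each (0.604%). Ddx60 was found in 7 (0.845%), Oas1a in 8 (0.966%) and Rtp4 in 10 (1.21%). The dermal levels of these genes, and the ratios against them, thus rest on few dermal cells. The part of free RNA in them was not tested.

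Cells with a UMI of Ifit1, Ifit2 or Ifit3 at 1500 UMIs made up 6.11% of cells in epidermis (16 of 262, 3.53 to 9.73), 1.69% in dermis (14 of 828, 0.927 to 2.82), against 12.5% in lymph node (1162 of 9308, 11.8 to 13.2). The other 36 members were then compared with cells of the same library that had no such UMI. They summed to 11333 CPM in cells with an IFIT UMI and 2642 CPM in those without in epidermis, a ratio of 4.29 (3.74 to 4.91). In dermis the values were 7571 and 1799 CPM, a ratio of 4.21 (3.56 to 4.94), and in lymph node 6918 and 3396 CPM, a ratio of 2.04 (1.996 to 2.08). In dermis 1 of the 14 IFIT cells held 42 of their 159 UMIs of these members. In epidermis 4 of the 16 held 100 of 272. The skin ratios thus rest in part on few cells, which the intervals do not cover. Without Ifi27l2a the ratios lay closer together, at 3.89 in epidermis (3.19 to 4.71), 3.59 in dermis (2.82 to 4.53) and 2.54 in lymph node (2.47 to 2.61). The other members were therefore higher in IFIT cells of all 3 libraries.

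In lymph node all 36 other members lay above 1 with their interval. Of the 28 with a mean of at least 10 CPM, 28 did so, against 3.69% of 7310 genes, and 20 were at least 2-fold higher in IFIT cells, against 0.698%. Mx1, a GTPase that blocks viruses, was 21.7-fold higher on 31 and 10 UMIs, and Rsad2, the enzyme viperin, was 16.6-fold higher on 57 and 24 UMIs. Isg15 stood at 426 CPM in IFIT cells and 60.1 CPM in the others, a ratio of 7.09, and Irf7 at 188 and 43.8 CPM, a ratio of 4.28. Members at the low end were Ddx58 (1.49-fold), Irf9 (1.58-fold), Ifi35, Ifi27l2a and Ifi203 (1.64-fold each), Trim25 (1.85-fold), Parp14 (1.88-fold) and Samd9l (1.90-fold). Genes first known from interferon gamma, the GTPase list, were 1.84-fold higher (1.77 to 1.91). A list of other type I induced genes, outside the members, was only 1.31-fold higher (1.29 to 1.33). That list was 1.55-fold higher in epidermal and 1.41-fold higher in dermal IFIT cells. In lymph node, resting Treg genes were at 1.03-fold, the MHC class I list at 1.08-fold, Treg core genes at 0.904-fold and effector Treg genes at 0.781-fold (0.749 to 0.814). In epidermis the interval lay above 1 for 14 of these 28 members, against 2.01% of all genes, and in dermis for 8 of 28, against 2.01%. At least 2-fold higher were 22 in epidermis, against 16.2% of all genes, and 19 in dermis, against 16.8%, on 16 and 14 IFIT cells. The epidermal IFIT cells also differed in state, with resting Treg genes 1.86-fold higher (1.44 to 2.37). Their effector Treg genes as a list were at 0.852-fold (0.712 to 1.01) and Treg core genes at 1.025-fold (0.803 to 1.29), and both intervals included 1. Within the effector list, Itgae and Areg stood at 0.412-fold (0.150 to 0.911) and 0.266-fold (0.0719 to 0.691). In dermis, resting Treg genes were at 0.916-fold (0.647 to 1.26) and effector Treg genes at 1.12-fold (0.973 to 1.29). The part of this state in the member ratios was not tested.

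**Figure D5:**
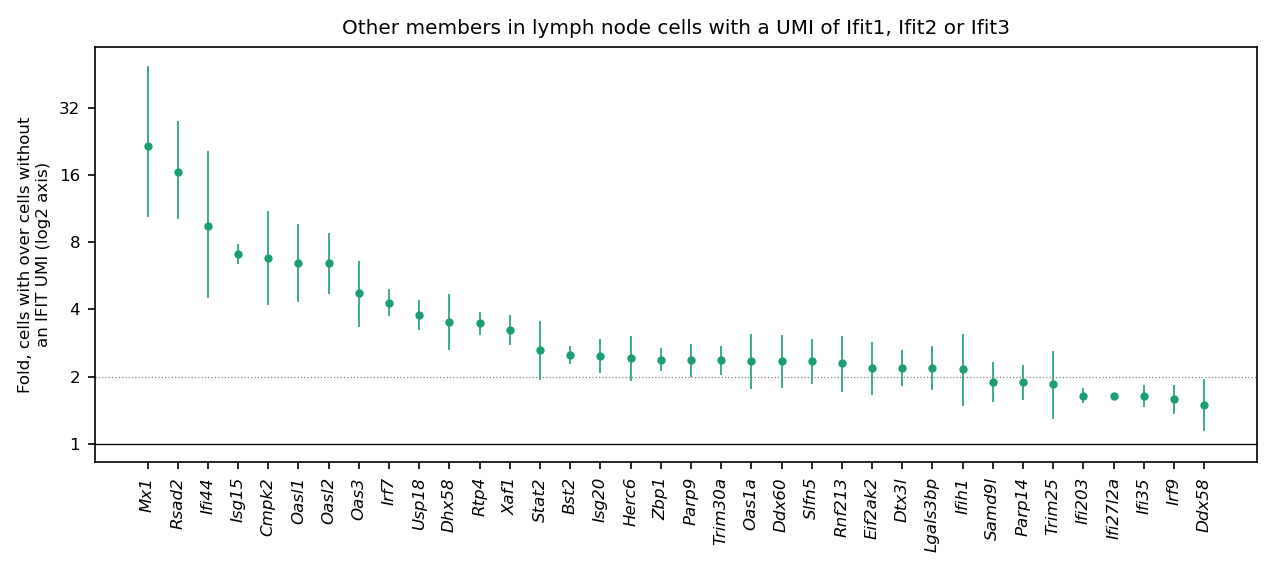
Ratio of CPM in lymph node cells with a UMI of Ifit1, Ifit2 or Ifit3 over lymph node cells without, for the 36 other members (log2 axis), with exact binomial 95% intervals and a dotted line at 2-fold. All 36 intervals lie above 1, from Mx1 at 21.7-fold to Ddx58 at 1.49-fold.

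Pairs of members were found together in lymph node cells. Of 744 cells with an Ifit1 UMI at 1500 UMIs, 34.5% also had an Isg15 UMI, against 8.43% of the 8564 cells without. The shares were 24.3% and 3.64% for Ifit3, 30.4% and 9.32% for Rtp4, 20.8% and 5.93% for Usp18, 14.5% and 5.98% for Isg20, and 10.3% and 5.23% for Samd9l. The correlation of a member with the sum of the others over 9308 lymph node cells is a description with no test, since these cells share a library. It was highest for Isg15 (Pearson r of 0.30), Ifi27l2a (0.29), Ifit1 (0.29), Ifit3 (0.27) and Rtp4 (0.26), and lowest for Ifit2 (0.03), Trim25 (0.04) and Samd9l (0.06). All 39 were above 0 in lymph node, as were 34 of 37 with a value in epidermis and 32 of 35 in dermis, and in sparse counts most of these values are weak. Among 7282 other genes of lymph node, the 10 highest included B2m (0.20), Gm4955, Samhd1, Ly6a, Mndal, AW112010, Ifi47, Phf11b and Irgm1 (0.15), against a 99th percentile of 0.07.

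Upstream of the members, the ligand genes were almost silent in the sorted cells. The 11 type I and type III interferon genes listed had 0 UMIs in epidermis and 2 each in dermis and lymph node, while Ifng, the gene of interferon gamma, stood at 35.4, 19.9 and 2.04 CPM. Of 15 measured receptor and signalling genes, 1 was higher in epidermis by 2-fold or more relative to dermis (Irf8) and 1 was lower (Jak2). Over all genes, 4.38% were higher and 3.21% lower by as much, so these counts are close to those shares. The receptor chain Ifnar1 stood at 112, 198 and 83.9 CPM and Ifnar2 at 57.1, 50.8 and 55.1 CPM. Ifnar1 was highest in dermis, where most members were lowest, and for Ifnar2 the intervals of all 3 ratios included 1. Of 12 negative regulators, 0 were at least 2-fold apart between the skin layers, which is also close to the shares of all genes. Socs1, a feedback inhibitor of Jak kinases, stood at 118, 102 and 144 CPM.

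Neighbouring response lists partly followed the same pattern between the skin layers. Of 13 interferon gamma-induced GTPases, 7 exceeded their dermal level in epidermis by 2-fold or more, and 0 were lower by as much. Beside this and the lists below, 4.38% of all 7312 genes were higher and 3.21% lower by as much. The GTPases had a median log2 ratio of 1.25 and summed to 987, 478 and 1075 CPM in epidermis, dermis and lymph node. Of 31 other type I induced genes, 7 were higher and 1, Cxcl10, was lower, with a median of 0.59. Cxcl10, a chemokine gene that interferon gamma also induces, stood at 62.1 CPM in epidermis, 150 CPM in dermis and 4.35 CPM in lymph node, the reverse of the order of Ifit1 and Usp18. Of 12 genes in the MHC class I list, 3 were higher, the proteasome-linked genes Psmb9, Psmb10 and Psme2, and 0 were lower. The list summed to 14088, 13349 and 14029 CPM. The member list stood between the GTPases and the MHC class I list in the size of this difference, which was described and not tested. Lists of Treg state also differed between the skin layers. Of 8 resting Treg genes, 5 were higher by 2-fold or more in epidermis and 0 lower, with a median log2 ratio of 1.39. Their sum was 1560 CPM in epidermis and 1937 CPM in dermis. Of 13 effector Treg genes, 0 were higher and 1 lower, with a median of -0.52. The part of Treg state in the member ratios was not tested.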

How the data were processed

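The authors deposited 1 matrix of UMI counts for each library, unnormalized by their headers and whole in every entry. Cell Ranger and the mm10 build stand in the submitters' processing notes. Its version was 4.0.0 in epidermis and dermis, per the file headers, and the sources used here do not name one for lymph node.

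The members and all gene lists were chosen with earlier results of these data known. Kept cells of each library were summed and scaled to CPM, with exact Poisson 95% intervals, and ratios of CPM had exact binomial intervals. Intervals cover counting error only. A gene was tested for size with a mean of at least 10 CPM over the 3 libraries and called at 2-fold; with 1 library per tissue no p-value was computed. All 39 members may be named, other genes by list and the 2-fold rule or as the 10 most correlated; Ifnar2 and Socs1 were named for their role. Of the 10 most correlated, 9 are named and 1 is not reported here. A ratio against 0 UMIs is not given, and a count of 0 is given the limit of 3 counts. Cells were thinned to 1500 UMIs without replacement, which left out 35 epidermal, 47 dermal and 92 lymph node cells. Doublets were not called. Gene positions are those of the mm10 annotation GENCODE vM21, and promoters those of RefSeq on GRCm38.p6. The ratio and interval code was tested on simulated data. Alternatives were other cell filters, subsets, depths, totals, TMM and median-of-ratios scaling, and other limits. Those by shared barcode, by Y-linked cells and without Ifi27l2a were chosen after seeing the data. Tools were Python 3.11.15, numpy 2.4.6, pandas 2.3.3, scipy 1.17.1, matplotlib 3.10.9, R 4.3.3 and edgeR 4.0.16 (scaling factors only).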

Additional observations from a re-analysis of the deposited data

How the results depend on the processing

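No paired analysis was possible because each tissue has 1 library. For epidermis over dermis, 11 members were at least 2-fold higher and 0 lower (all genes 4.38% and 3.21%). In cells with Xist but without Y-linked UMIs the counts were 3 and 1 (all genes 4.69% and 3.31%). By the mean of each cell's CPM 7 were higher (all genes 6.24%), and 1 of 11 with a mean of at least 50 CPM (2.61%). With no limit 17 of 38 were higher (12.9%), and 21 at 1.5-fold (13.7%). The median log2 ratio, 0.78, was 0.36 in cells with Xist but without Y-linked UMIs and stayed above 0 in all 16 settings. Of the called members, Ifit3 (-0.61), Dhx58 (-0.51) and Ddx60 (-0.13) changed sign in those cells, and 10 of all 30 lay below 1, against 1 in all cells. The cause of these changes was not tested. Over all cells 43.4% of all genes lay below 1, and that share was not computed for cells with Xist but without Y-linked UMIs.

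For epidermis over lymph node, the 2 higher members became 1 with at most 5% mitochondrial UMIs, in cells with Xist but without Y-linked UMIs, by TMM, by median-of-ratios and with mitochondrial and ribosomal protein genes left out of the totals. The share of all genes in these settings ran from 11.8% by median-of-ratios to 22.1% in cells with Xist but without Y-linked UMIs. The 6 lower members became 10 in cells with Xist but without Y-linked UMIs (all genes 6.32%), 0 of 11 at 50 CPM (2.42%) and 11 at 1.5-fold (9.92%), against 2.83% of all genes in the values reported. Scaling moved the median of all genes from 0.20 to -0.04 by TMM and -0.18 by median-of-ratios, and that of the members from -0.10 to -0.33 and -0.46. The members' median was above 0 in 3 of 15 settings, at 0.02 with at most 5% mitochondrial UMIs, 0.03 without any shared barcode and 0.01 at 50 CPM. For dermis over lymph node, 14 lower members became 4 of 11 at 50 CPM (all genes 7.93%, against 8.97% in the values reported). The median, -0.72, was -1.01 in cells with a Foxp3 UMI and in thinned cells, -1.31 without mitochondrial and ribosomal protein genes (all genes -0.20) and -1.205 with no limit.

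The summed level moved beyond its counting interval in these subsets. At most 5% mitochondrial UMIs gave 3629 CPM in epidermis and 2205 CPM in dermis. A Foxp3 UMI gave 3589 in epidermis and 4048 in lymph node, leaving out cells above the 95th UMI percentile gave 1939 in dermis, and leaving out any shared barcode gave 3232 in epidermis. Cells with Xist but without Y-linked UMIs gave 2185, 1870 and 3985 in epidermis, dermis and lymph node, and cells with Y-linked UMIs but without Xist 4362 and 2586 in epidermis and dermis. Leaving mitochondrial and ribosomal protein genes out of the totals gave 4855, 2687 and 6426, and leaving out Ifi27l2a 1682, 1082 and 1856. The share of member UMIs in the richest 10% of cells was 33.5% in dermis and 35.9% in lymph node without Ifi27l2a, and 31.7% and 30.1% in lymph node at 1000 and 2500 UMIs per cell. With at least 2 IFIT UMIs the other members were 6.31-fold higher in epidermis (4 cells), 15.6-fold in dermis (1 cell) and 3.23-fold in lymph node, and 1.82-fold in lymph node at 2500 UMIs. The causes of these shifts were not tested. Single genes gave no ratio in a setting where a library had 0 UMIs of them.

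With 1 library per tissue, differences between animals, kits and handling cannot be told apart from tissue. Depth limits the sparse members: 9 had a mean under 10 CPM, and the dermal library held at most 16 UMIs of any of them.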
